A study of Mus musculus with 4 samples.

Results

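The genes described here are the solute carrier genes with a clear signal in mouse macrophages. A gene belonged to the set when its single annotated symbol began with Slc, a number and a letter, and when its highest signal on the 4 arrays of the series was at or above log2 7. Each gene was read from its probe (a gene-level entry of the array) with the highest mean over the 4 arrays. Slc7a11, Slc7a2, Slc40a1, Slc11a1 and Slc2a1 were left out by name. Of 360 measured solute carrier genes, 176 reached the level and 184 did not, among 19938 genes of the series, of which 10552 reached the same level. The genes were chosen by their highest log2 signal, so their being expressed is a description and not a result. Of the 176 genes, 146 were at or above the level on every array and 30 were under it on at least 1 array, which means that a gene of the latter kind entered through the condition in which it was highest. The symbols of 4 of the 176 are built on a carrier's name without being carriers themselves (Slc9a3r1, a scaffold protein that binds carriers, with Slc4a1ap, Slc7a6os and the pseudogene Slc2a4rg-ps). Just inside the level lay Slc4a11 with a highest signal of 7.02, Slc16a9 with 7.05, Slc34a1 with 7.07 and Slc22a15 with 7.08. Just under it lay Slc25a29 with 6.97, Slc7a4 and Slc6a9 with 6.96 each, and Slc52a3 with 6.95.

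Bone marrow of female BalbC mice was grown for 7 days into macrophages in medium conditioned by L929 cells, a fibroblast line that secretes macrophage colony stimulating factor. All arrays share this strain, sex and culture. The Control array holds untreated cells, and the LPS array holds cells given lipopolysaccharide at 10 ng/ml, a bacterial cell wall product sensed by the receptor TLR4. LPS/zVAD adds the caspase inhibitor zVAD at 50 µM to LPS, and LPS/zVAD/Nec-1 adds necrostatin-1 at 30 µM, an inhibitor of the kinase RIPK1, to both. The series was set up to read inflammatory changes that need RIPK1 kinase activity. Each condition had 1 array, so no difference has a replicate check, no p-value can be given and no spread between replicates is known. The comparisons hold no array of zVAD alone, of Nec-1 alone or of LPS with Nec-1, so what either inhibitor does by itself cannot be told apart. Whether mice were pooled, and how long the cells were treated, is not given in the sources used here.

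Solute carriers are membrane proteins that move nutrients, ions, vitamins, metabolites and drugs across the plasma membrane and across the membranes of lysosomes, mitochondria and the secretory pathway. Some use the gradients of sodium or protons to pull their cargo against its own gradient, while others exchange one molecule for another or let it flow down its gradient. In macrophages they bring in sugars and amino acids and export lactate. They also handle the iron, zinc and copper that macrophages withhold from or deliver against microbes. RIPK1 is a kinase of cell death and inflammatory signalling, and macrophages given LPS while caspases are blocked are known to undergo necroptosis, a lytic death that depends on it.

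The macrophage label was checked against fixed markers: 8 of 8 macrophage markers were past the level, with highest signals from 11.10 to 14.05, while none of the fixed markers for erythroid, mast or dendritic cells, or for lymphocytes (B, T and NK), reached it. All 5 neutrophil markers reached it (highest signals from 7.72 to 10.21), with a log2 summed signal of 11.20 in Control, 11.75 for LPS, 11.43 for LPS/zVAD and 11.43 once Nec-1 was added, and so did 3 of 4 stromal markers, whose log2 summed signal was 9.25, 8.91, 9.19 and 9.25 in the same order. Their part in the results was not tested. The median signal of all probes lay between 6.41 and 6.52 on the 4 arrays. Less RNA per cell and fewer cells of a kind cannot be told apart in such bulk samples. A signal is compared here only with the same gene's signal on another array, never with that of another gene, and 4 values in a row stand first for Control, then for LPS, then for LPS/zVAD and last for LPS/zVAD/Nec-1. A log2 ratio is the difference of 2 log2 signals, "higher" and "lower" in a count mean 2-fold or more between 2 single arrays, and "as deposited" means without further scaling.

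Across the 4 arrays the solute carrier genes spanned a median range of 0.90 on the log2 scale, against 0.69 for all 10552 genes past the level. The range was 2-fold or more for 77 of the 176 (43.8%, against 30.3% of all genes). Control was the highest array for 91 of them (51.7%, against 45.6% of all genes), LPS for 43 (24.4%, against 23.7%), LPS/zVAD for 33 (18.8%, against 20.7%) and LPS/zVAD/Nec-1 for 9 (5.11%, against 9.99%). LPS/zVAD was the lowest array for 77 (43.8%, against 39.8% of all genes). Among the smallest ranges were those of Slc39a7, a zinc carrier of the endoplasmic reticulum with 9.60, 9.63, 9.46 and 9.62, and to Slc25a3, the mitochondrial phosphate carrier, with 12.66, 12.48, 12.58 and 12.41. Slc3a2, the heavy chain that anchors several amino acid exchangers in the plasma membrane, was at 13.36, 13.56, 13.64 and 13.52. Slc39a7 was named for its small range after its values were seen.

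The LPS array was compared with Control to describe how carrier expression differed after the bacterial stimulus. A purine nucleoside carrier and its neighbour, an iron importer, a mitochondrial glutamate carrier and a lysosomal peptide carrier had the highest ratios. Among the lower genes were carriers of glutamine and neutral amino acids, of hexoses and sugar phosphates, and of folate. In numbers, 13 of the 176 genes were higher with LPS, or 7.39%, where the share of all genes past the level was 9.39%. Lower with LPS were 28, or 15.9%, where the share of all genes was 8.24%. The median log2 ratio was -0.28 for the carriers and -0.10 for all genes. When arrays were centred to a common median, the median of all genes became 0.00 and that of the carriers -0.17. Such centring shifts every ratio of a comparison by 1 constant and leaves the gap between carriers and all genes as it was, at 0.18. The split depended on scaling: it was 13 higher and 28 lower as deposited, 15 and 18 with centred arrays and 15 and 21 after cyclic loess, so that the higher genes made up 31.7%, 45.5% and 41.7% of the carriers past 2-fold. Over all genes that share was 53.3%, 61.5% and 60.6% in the same order. Quantile normalization left the split at 13 and 28 (31.7%, against 51.9% over all genes). Under the 3 further scalings tried (centred arrays, quantile normalization and cyclic loess), 12 of the 13 higher genes and 18 of the 28 lower ones stayed past 2-fold each time.

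**Figure D1:**
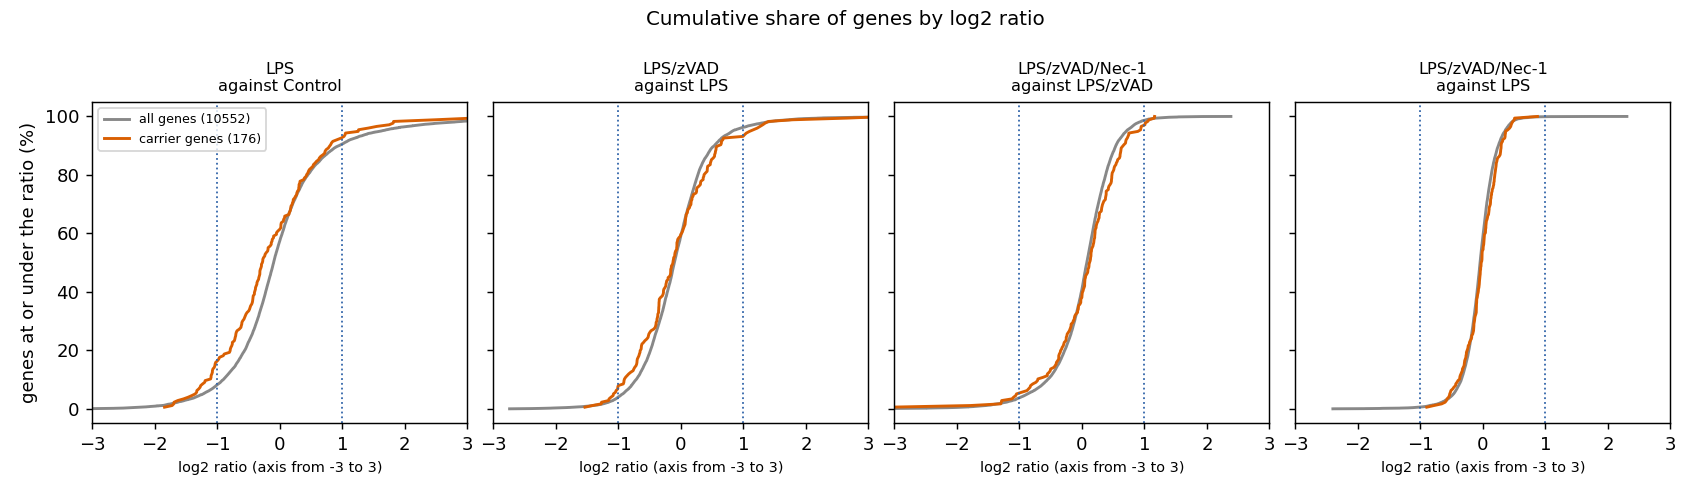
Cumulative share of genes (percent, vertical axis) at or under a given log2 ratio (horizontal axis, shown from -3 to 3) in each of the 4 comparisons, for the 176 carrier genes and all 10552 genes past the same signal level; dotted lines mark 2-fold. In LPS against Control the carrier curve lies to the left of the curve of all genes through the negative ratios, with medians of -0.28 and -0.10, and in the last panel both curves are steep around 0.

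Nucleoside and nucleobase carriers, 6 past the level of 9 measured, held the highest ratios of the LPS comparison, with 3 higher and 1 lower gene. The shares of all genes were 9.39% higher and 8.24% lower. Slc28a2, the sodium-coupled carrier that concentrates purine nucleosides in the cell, had log2 signals of 8.03, 12.25, 11.91 and 11.95. It stood alone on the low side in Control, and its LPS signal was 18.6-fold higher. Slc28a2b, the next gene along chromosome 2 and a close relative, had signals of 7.92, 11.005, 10.73 and 10.79, or 8.48-fold higher with LPS. Relatives of this kind can hybridise to each other's probes, so the separate sizes of these 2 ratios are uncertain. Slc29a3, a nucleoside carrier of lysosomes, was 2.06-fold higher with LPS (9.22, 10.27, 10.76 and 10.43). Slc43a3, which carries purine nucleobases, was the only lower one of the class past 2-fold, at a log2 ratio of -1.10, and centred arrays put it at -0.9954, just short. Slc29a1, the equilibrative carrier of the plasma membrane, was at 10.01, 9.22, 9.16 and 9.40 and did not reach 2-fold.

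Promoter sequence was set beside the members that stood furthest apart, because the neighbours Slc28a2 and Slc28a2b led the LPS comparison and the genes highest with zVAD led the next one. RefSeq promoter entries of the build GRCm38.p6 were found for 138 of the 176 genes (181 entries among 32851 in all), each with 250 bases before the gene's start. The windows printed hold the 150 bases before the start, read 5′ to 3′ on the gene's strand, and capitals mark a match to one of 6 motifs searched on both strands. These were GAS (TTCNNNGAA, bound by STAT factors), AP-1 (TGANTCA), CARE (TGATGNAA, bound by ATF4 with a C/EBP partner), MRE (TGCACNC or TGCGCNC, bound by the metal sensor MTF1), and the longer consensus sequences of NF-kB and of ISRE, the interferon-stimulated response element. Matches of different motifs may overlap. Slc28a2 lies at chr2:122426285-122426434 (plus strand) and Slc28a2b at chr2:122484791-122484940 (plus strand).
Slc28a2: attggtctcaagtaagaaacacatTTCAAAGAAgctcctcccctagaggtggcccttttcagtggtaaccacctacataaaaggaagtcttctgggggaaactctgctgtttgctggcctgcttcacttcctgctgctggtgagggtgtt
Slc28a2b: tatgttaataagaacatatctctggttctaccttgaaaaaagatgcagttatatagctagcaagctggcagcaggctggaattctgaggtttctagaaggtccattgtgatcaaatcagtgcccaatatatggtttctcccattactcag
The Slc28a2 window held the GAS letters from -126 to -118, counted from the start, and Slc28a2b held none of the 6 motifs in this window and 1 MRE match further up, from -194. Aligned over 250 bases, the 2 promoters had 143 identical and 57 different bases with 100 gap positions, or 71.5% identity of the aligned bases. Gap positions are left out of that share. Unrelated promoters were not aligned, so whether the share is high was not tested. Motif shares over all genes refer here to the 27025 genes with a promoter entry, whatever their signal, while the carriers had passed the level. A GAS match occurred in the 250-base windows of 8.13% of these genes and 6.52% of the 138 carriers. It occurred in 1 of the 11 genes with an entry that were higher with LPS. NF-kB matches occurred in 8.23% of the genes with an entry and 10.1% of the carriers, again in 1 of those 11. A match describes letters only, and its absence says only that these letters are not in the window.

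Metal carriers (25 past the level of 30 measured) had 4 genes higher and 3 lower with LPS as deposited. The 4 of 25 were the largest number of a class but not the largest share, which was 3 of 6 among the nucleoside carriers. After quantile normalization 3 metal carriers were higher and 3 lower. The shares of all genes past the level were 9.39% higher and 8.24% lower as deposited. Slc11a2, which imports ferrous iron with protons and releases it from endosomes, had signals of 8.86, 11.34, 11.65 and 11.44. All 3 arrays with LPS stood above Control, and the LPS signal was 5.59-fold higher. Slc31a2, a copper carrier of endosomes and lysosomes, had signals of 12.04, 13.59, 12.96 and 13.58, with the LPS signal 2.93-fold higher. Slc31a1, the main copper importer, was at 11.18, 12.23, 11.33 and 11.65. Its ratio was 1.05 as deposited and 0.93 after quantile normalization, so it passed 2-fold under some scalings only. The zinc importer Slc39a2 was under the level in Control at 6.82 and at 8.57 with LPS, a ratio given as at least 2.96-fold because it is counted from the level. Zinc handling ran both ways: Slc30a5, which loads zinc into the secretory pathway, was 2.35-fold lower (10.76, 9.53, 9.18 and 9.42), and the zinc importers Slc39a10 and Slc39a8 were 2.29-fold and 2.05-fold lower. Slc39a8 was short of 2-fold with centred arrays, at -0.9353, and after cyclic loess, at -0.9436. The median over the 25 metal carriers was 0.15, and it was above 0 under each scaling.

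Amino acid, osmolyte and peptide carriers held 1 higher and 5 lower genes of the 26 past the level (68 measured). Beside this, 9.39% of all genes were higher and 8.24% lower. Slc15a3, a proton-coupled carrier that moves histidine and short peptides out of lysosomes, was at 11.59, 13.40, 13.34 and 13.45, with the LPS signal 3.51-fold higher. Its relative Slc15a4 was at 9.63, 9.85, 9.61 and 10.05, with a ratio of 0.21. The lowest ratio of all carriers belonged to Slc1a5, the exchanger that brings in glutamine, at 10.75, 8.91, 9.95 and 9.22, or 3.59-fold lower with LPS. Next came Slc38a2, a sodium-coupled importer of small neutral amino acids, 3.30-fold lower (11.47, 9.75, 12.41 and 10.62). Slc7a5, the light chain that exchanges large neutral amino acids with Slc3a2 as its anchor, was 2.51-fold lower (11.03, 9.70, 10.34 and 10.05), whereas Slc3a2 itself had a ratio of 0.20. Slc7a6, another light chain of Slc3a2, was 2.10-fold lower as deposited. Slc7a8 and Slc7a7, further light chains of the same anchor, had ratios of 0.63 and 0.27, so light chains of 1 anchor lay on both sides of 0. The taurine carrier Slc6a6 was at 12.26, 12.57, 12.25 and 12.51.

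Among sugar and polyol carriers (11 past the level of 28 measured), 1 was higher and 3 were lower with LPS. Of all genes, 9.39% were higher and 8.24% lower. Slc2a6, a hexose carrier of the facilitative family found on lysosomes, was at 11.71, 12.96, 12.57 and 12.95, or 2.38-fold higher. Slc2a3, a high-affinity glucose carrier of the plasma membrane, was at 8.81, 7.27, 7.00 and 7.23, or 2.91-fold lower. These 2 members of one family thus had ratios of opposite sign. Slc37a2, a sugar phosphate carrier of the endoplasmic reticulum, was 3.23-fold lower (10.64, 8.95, 10.22 and 9.10), and Slc45a4 was 3.10-fold lower (8.80, 7.17, 7.10 and 7.61). The carboxylate carriers (6 of 19 measured) had 1 lower gene: Slc16a7, which carries lactate and pyruvate, was at 9.88, 8.42, 8.46 and 8.33, or 2.76-fold lower. Slc16a3, the lactate exporter of glycolytic cells, was at 11.85 in Control and 11.86 with LPS, a difference whose sign turns under quantile normalization.

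Vitamin, choline and heme carriers (10 past the level of 19 measured) had 2 higher and 4 lower genes, beside 9.39% and 8.24% of all genes. The choline carrier Slc44a1 had a ratio of 1.42 on the probe used (9.98, 11.40, 11.47 and 10.62) and 0.86 on its other probe, so its probes differ on which side of 2-fold it lies. Slc49a4 was 2.39-fold higher (8.89, 10.15, 10.67 and 10.05). Slc46a1, the proton-coupled folate carrier, was 2.51-fold lower (8.49, 7.16, 6.77 and 7.38). Slc19a2, a thiamine importer, was at 7.95, 6.65, 6.55 and 6.58, under the level on each array with LPS. Counted from the level, its ratio was at least 1.93-fold. It reached the level in Control only, so the sign of its ratio followed from how genes were chosen. The same held for Slc17a9, which loads nucleotides into vesicles (at least 1.73-fold lower), Slc12a2, the sodium, potassium and chloride cotransporter (at least 1.81-fold), and Slc46a3, a lysosomal carrier (at least 1.75-fold), so these 4 of the 28 lower genes were not past 2-fold when counted from the level.

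Mitochondrial carriers were the 34 genes of the Slc25 family past the level of 46 measured (a few of which sit in other membranes). They had 1 higher and 2 lower genes, beside 9.39% and 8.24% of all genes. The median was -0.30, and 26 of the 34 ratios were below 0 as deposited and 25 with centred arrays. Slc25a15, Slc25a33, Slc25a35, Slc25a42 and Slc25a47 reached the level in Control only, so the sign of their ratios followed from how genes were chosen. Over all 176 genes of the set 108 ratios were below 0, and the median of all genes past the level was -0.10. Slc25a22, a mitochondrial glutamate carrier, was at 7.90, 9.72, 9.02 and 9.59, or 3.53-fold higher. Slc25a13, the aspartate and glutamate exchanger of the malate-aspartate shuttle, was at 9.87, 8.47, 8.64 and 8.65, or 2.65-fold lower. Slc25a12, the other exchanger of that shuttle, was at 11.44, 12.26, 11.35 and 12.25, a ratio of 0.83 that did not reach 2-fold. The adenine nucleotide exchanger Slc25a5 was at 13.10, 12.78, 12.81 and 12.85, and the citrate carrier Slc25a1 at 11.22, 11.08, 11.03 and 10.93.

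The remaining classes had medians below 0 with LPS, at -0.34, -0.14 and -0.41 in the order given here. Their counts past 2-fold stand beside 9.39% higher and 8.24% lower over all genes. The class of nucleotide sugars and acetyl-CoA of the secretory pathway holds the Slc35 family and Slc33a1. Belonging to it does not show that a gene carries this cargo. This class had 0 higher and 3 lower genes of 21 past the level (28 measured), among them Slc35c2 (10.60, 8.90, 8.67 and 9.14), 3.24-fold lower. Carriers of inorganic ions had 1 higher gene, Slc12a9 (8.78, 9.80, 9.31 and 10.01), 2.04-fold, and 3 lower ones of 18 (53 measured), among them the phosphate importer Slc20a2 (9.10, 7.996, 8.25 and 8.02) and the endosomal sodium and proton exchanger Slc9a9 (10.98, 9.93, 10.48 and 10.05). Slc9a9 passed 2-fold as deposited but had a ratio of -0.94 with centred arrays. Carriers of organic ions, lipids and other cargo had 0 higher and 3 lower genes of 15 (52 measured), including Slc17a5, which takes sialic acid out of lysosomes (11.92, 10.90, 11.004 and 10.75). Slc17a5 was short of 2-fold with centred arrays (-0.92) and after cyclic loess (-0.98), and with centred arrays 1 gene of this class was lower. The 9 genes of the Slc22 family of organic ion carriers past the level (23 measured) had ratios from -0.73 (Slc22a15, whose LPS signal of 6.35 is under the level, so that its ratio counted from the level is -0.08) to -0.10 (Slc22a5). Of these ratios 9 were below 0 as deposited and 8 with centred arrays, and 0 reached 2-fold. Slc22a12, Slc22a13b, Slc22a17 and Slc22a21 were also under the level with LPS. Slc22a15 and Slc22a21 reached the level in Control only, so the sign of their ratios followed from how genes were chosen. Over all 176 genes 108 ratios were below 0 as deposited. The class medians of the LPS comparison kept their sign under the 3 scalings, apart from the 4 genes that are not carriers.

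**Figure D2:**
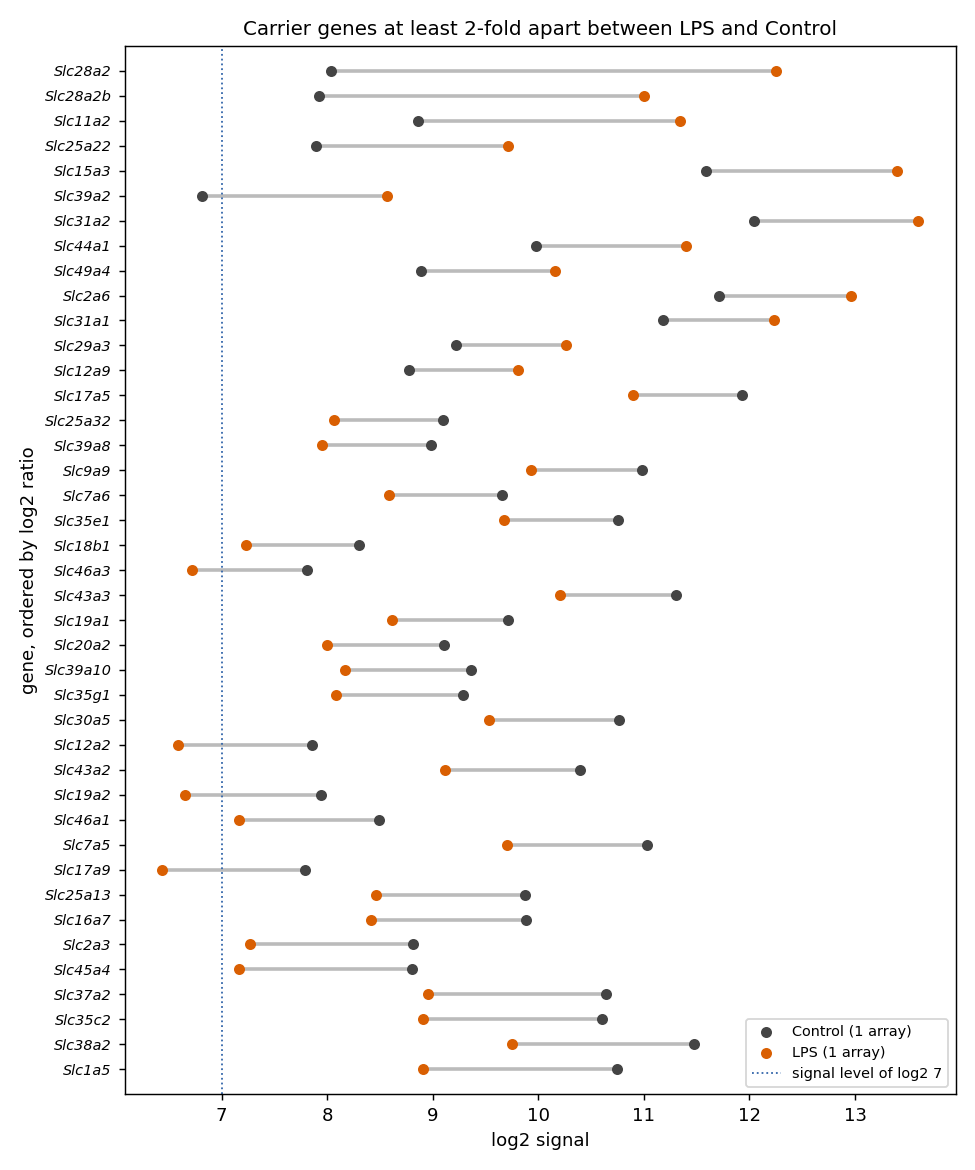
Log2 signals (horizontal axis) on the Control array and the LPS array of the carrier genes at least 2-fold apart (13 higher and 28 lower with LPS), ordered by log2 ratio; the dotted line marks the signal level of log2 7. Slc28a2 spans from 8.03 to 12.25, and Slc39a2 in Control and Slc46a3, Slc12a2, Slc19a2 and Slc17a9 with LPS fall to the left of the line.

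LPS/zVAD was compared with LPS to describe what the caspase inhibitor added, and LPS/zVAD/Nec-1 with LPS/zVAD to describe what RIPK1 inhibition added to that. Importers of zinc and of amino acids had the highest ratios with zVAD: Slc39a2, Slc38a2, Slc38a1 and Slc7a1, with the monocarboxylate carrier Slc16a1. Lowest were Slc10a7 and the mitochondrial carrier Slc25a45, and 4 of the 14 lower genes were carriers of nucleotide sugars or acetyl-CoA. Of the 176 genes, 12 were higher with LPS/zVAD than with LPS, or 6.82%, where the share of all genes was 3.7%. Lower were 14, or 7.95%, where the share of all genes was 4.08%. The medians were -0.12 for the carriers and -0.10 for all genes. Quantile normalization gave 13 higher and 7 lower and cyclic loess gave 13 and 6, so the higher genes made up 65% and 68.4% of the carriers past 2-fold, against 46.2% as deposited. Over all genes that share moved the same way, from 47.5% to 58.1% and 61.6%. Centred arrays gave 11 higher and 14 lower (44%, against 42.1% over all genes). Of the 12 higher genes, 11 stayed past 2-fold under all 3 scalings, but only 6 of the 14 lower ones did.

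With Nec-1 added, 6 of the 176 genes were higher than with LPS/zVAD, or 3.41%, where the share of all genes was 1.31%, and 9 were lower, or 5.11%, where the share of all genes was 3.77%. The medians were 0.13 for the carriers and 0.08 for all genes. All 9 lower genes stayed past 2-fold under the 3 scalings, and 2 of the 6 higher ones did. With centred arrays and after quantile normalization the split was 4 higher and 9 lower (30.8% higher), and after cyclic loess it was 2 and 10 (16.7%), against 40% as deposited. Over all genes the higher share was 25.7% as deposited, 21.8% with centred arrays, 24.7% after quantile normalization and 16.4% after cyclic loess. The 2 comparisons share the LPS/zVAD array, and the one before shares the LPS array with both LPS/zVAD and Control, so values of the same gene are set side by side and no overlap between the comparisons is read as a result.

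Slc39a2, a zinc importer of the plasma membrane, stood furthest apart among the carriers. Its log2 signals were 6.82, 8.57, 11.87 and 8.78. LPS/zVAD was the high array, and Control was under the level. The LPS/zVAD signal was 9.85-fold above the LPS signal and 8.50-fold above that with Nec-1, while the LPS and LPS/zVAD/Nec-1 signals differed by 0.21. The zinc importers Slc39a10 and Slc39a8 were also high on that array against both neighbours. Slc39a10 was at 9.37, 8.17, 9.48 and 8.19, or 2.48-fold higher with zVAD than with LPS and 2.46-fold lower with Nec-1 than without it. Slc39a8, which carries zinc, iron and manganese, was at 8.99, 7.95, 9.17 and 8.08, or 2.33-fold and 2.13-fold in the same order. For both, the Control signal was close to that with LPS/zVAD, unlike Slc39a2. Over the whole metal class 3 of 25 were higher and 0 lower with zVAD, beside 3.7% and 4.08% of all genes. Yet 17 of the 25 ratios were below 0 as deposited (15 after cyclic loess) and the median was -0.23. Ratios below 0 were also common in the whole set, at 105 of 176, and the median of all genes past the level was -0.10. Slc30a1, which exports zinc from the cell, was at 8.97, 9.59, 9.96 and 9.91, and Slc30a4, which loads zinc into endosomes, was at 8.48, 9.17, 9.71 and 8.93, neither past 2-fold in these comparisons.

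**Figure D3:**
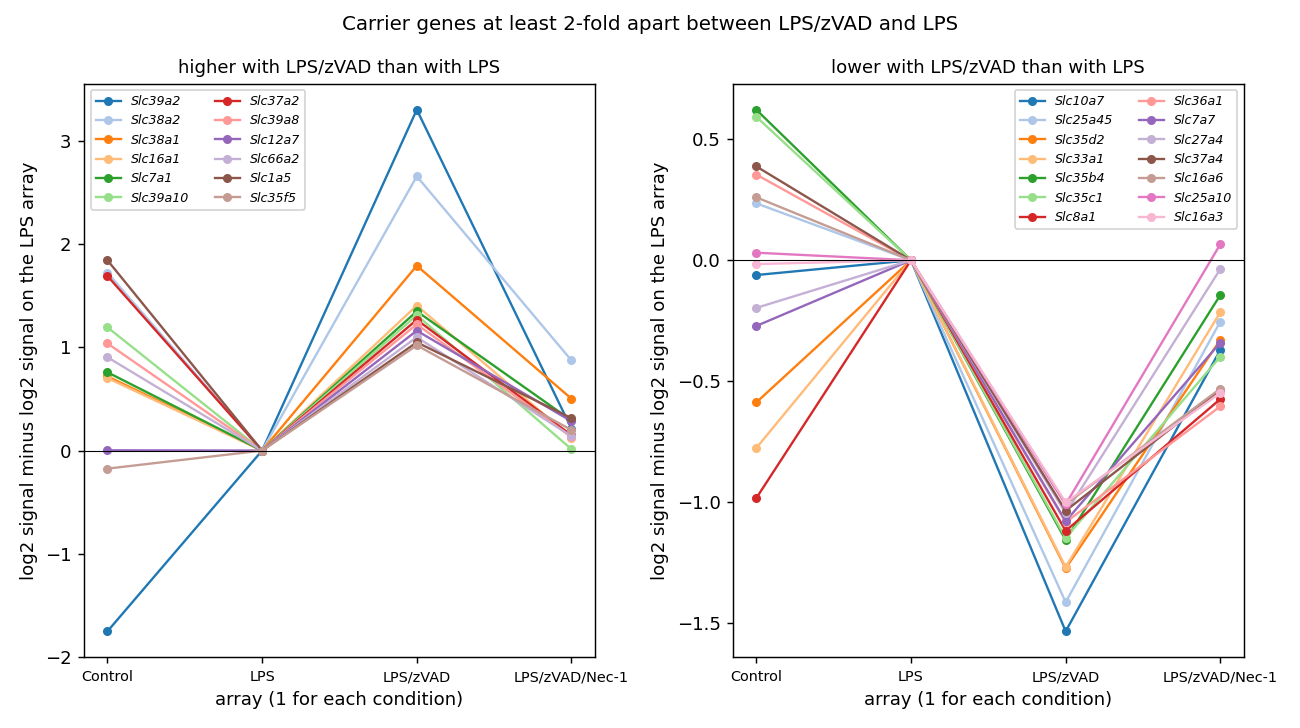
Log2 signal minus the log2 signal on the LPS array (vertical axis) over the 4 arrays (horizontal axis, 1 array for each condition), for the 12 carrier genes at least 2-fold higher (left) and the 14 at least 2-fold lower (right) with LPS/zVAD than with LPS; the vertical scales differ. The zVAD array chose these genes, and their values against it are a description: Slc39a2 reaches 3.30 and Slc38a2 2.66 on the left, and Slc10a7 reaches -1.53 on the right.

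Amino acid carriers had 5 higher and 2 lower genes of 26 with zVAD, beside 3.7% and 4.08% of all genes. Slc38a2 was at 11.47, 9.75, 12.41 and 10.62, or 6.30-fold above the LPS signal with LPS/zVAD and 3.44-fold lower again with Nec-1. LPS was its low array and LPS/zVAD its high one. Slc38a1, the neighbouring gene on chromosome 15 and a glutamine importer of the same family, was at 10.98, 10.26, 12.05 and 10.76, or 3.46-fold and 2.44-fold in the same order. Its other probe gave log2 ratios of 1.10 and -1.17. Slc7a1, which imports arginine and lysine, was at 9.82, 9.06, 10.41 and 9.35, or 2.55-fold and 2.08-fold. Slc1a5 was 2.07-fold higher with zVAD and stayed under its Control signal. Slc66a2 was at 8.39, 7.49, 8.58 and 7.63, or 2.14-fold higher with zVAD, and with Nec-1 its log2 ratio was -0.96 as deposited and -1.06 after cyclic loess. The lower ones were Slc36a1, a proton-coupled carrier that takes amino acids out of lysosomes (9.52, 9.16, 8.08 and 8.56), and Slc7a7, which pairs with Slc3a2 to exchange basic for neutral amino acids (10.57, 10.84, 9.76 and 10.50). Both were short of 2-fold after quantile normalization, at -0.96 and -0.99. The class median was -0.06 as deposited and turned to 0.0038 after cyclic loess, so the class as a whole had no settled direction.

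**Figure D4:**
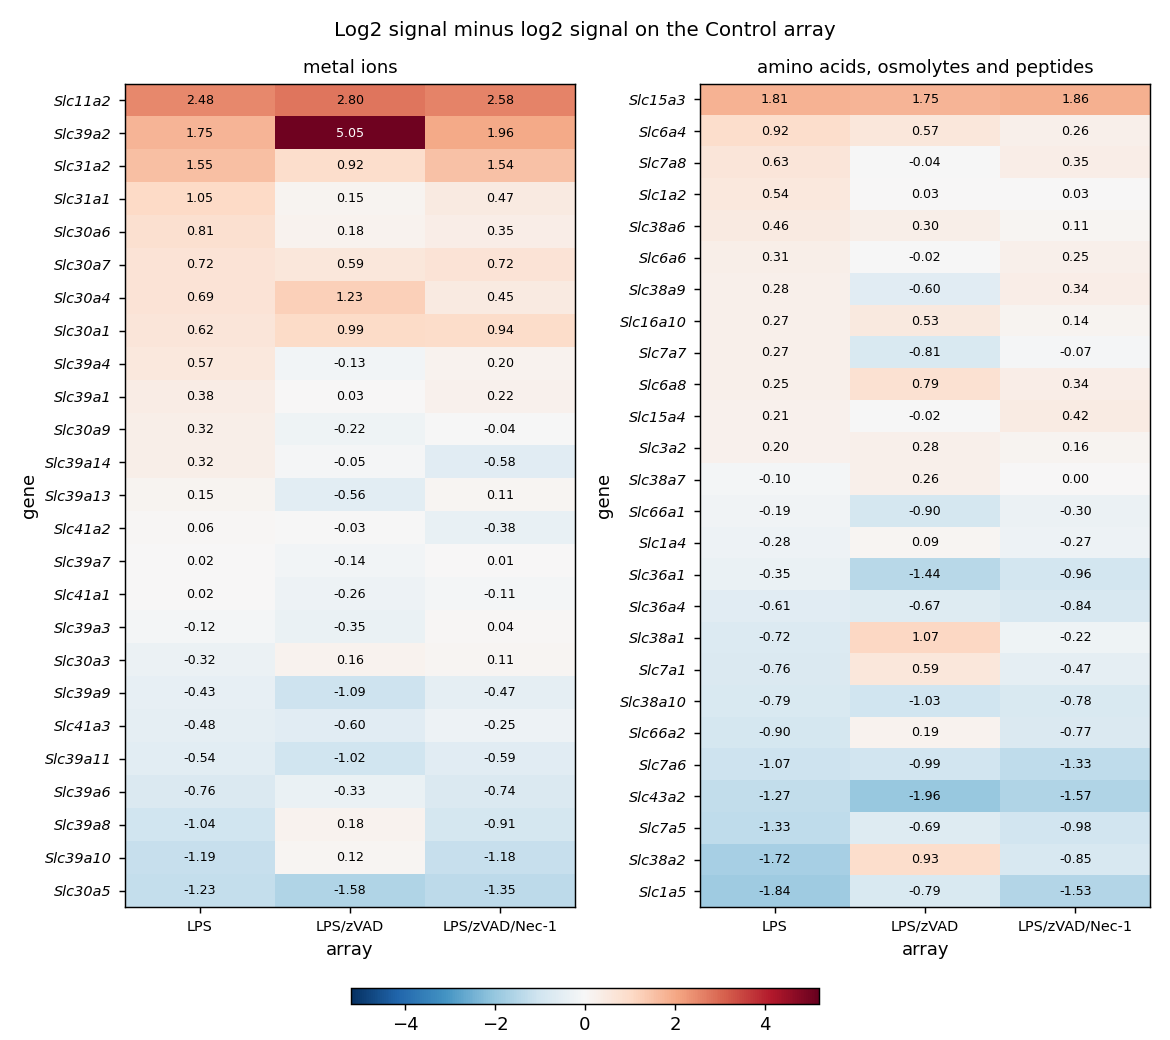
Log2 signal minus the log2 signal on the Control array for the 25 metal carriers (left) and the 26 amino acid, osmolyte and peptide carriers (right), ordered by the LPS value, with 1 column for each array given LPS; colour gives the same value as the printed number. The middle column of Slc39a2 is the darkest cell, and the middle columns of Slc38a2, Slc38a1 and Slc7a1 are above 0 where their outer columns are below it. The 3 columns share the Control array.

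Promoter windows are shown for the 6 genes of highest ratio with zVAD that have an entry in the table, since they led the comparison. Slc39a2 lies at chr14:51893460-51893609 (plus strand), Slc38a2 at chr15:96699729-96699878 (minus), Slc16a1 at chr3:104638514-104638663 (plus) and Slc37a2 at chr9:37255739-37255888 (minus). Slc7a1 has 2 entries, at chr5:148399905-148400054 and chr5:148392816-148392965 (both minus), and so has Slc39a10, at chr1:46925777-46925926 and chr1:46853619-46853768 (both minus). All are in GRCm38.p6 from RefSeq.
Slc39a2: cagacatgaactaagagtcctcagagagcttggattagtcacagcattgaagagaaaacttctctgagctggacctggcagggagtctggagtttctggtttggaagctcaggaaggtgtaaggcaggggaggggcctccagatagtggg
Slc38a2: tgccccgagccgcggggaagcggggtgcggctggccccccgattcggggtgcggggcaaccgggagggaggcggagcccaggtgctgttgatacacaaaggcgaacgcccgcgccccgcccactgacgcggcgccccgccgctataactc
Slc16a1: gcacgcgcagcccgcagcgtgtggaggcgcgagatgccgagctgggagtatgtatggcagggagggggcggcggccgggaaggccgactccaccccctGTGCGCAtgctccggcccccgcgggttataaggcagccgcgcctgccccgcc
Slc7a1, entry 1: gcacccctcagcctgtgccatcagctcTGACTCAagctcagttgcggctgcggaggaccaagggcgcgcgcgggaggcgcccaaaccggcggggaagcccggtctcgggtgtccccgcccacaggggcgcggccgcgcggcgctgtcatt
Slc7a1, entry 2: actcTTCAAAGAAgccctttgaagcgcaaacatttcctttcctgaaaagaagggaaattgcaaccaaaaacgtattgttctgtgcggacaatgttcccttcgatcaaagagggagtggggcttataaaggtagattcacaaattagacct
Slc39a10, entry 1: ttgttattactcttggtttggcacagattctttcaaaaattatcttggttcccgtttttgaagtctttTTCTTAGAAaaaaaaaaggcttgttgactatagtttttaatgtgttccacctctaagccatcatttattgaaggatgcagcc
Slc39a10, entry 2: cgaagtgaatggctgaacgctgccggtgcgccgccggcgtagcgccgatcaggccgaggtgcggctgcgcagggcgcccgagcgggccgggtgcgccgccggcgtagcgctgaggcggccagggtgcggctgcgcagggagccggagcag
Slc37a2: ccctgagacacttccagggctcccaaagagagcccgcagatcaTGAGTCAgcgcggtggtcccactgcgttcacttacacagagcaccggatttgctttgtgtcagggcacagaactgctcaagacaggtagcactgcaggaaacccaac
The Slc37a2 window held the AP-1 letters from -107 to -101, and the first Slc7a1 entry held them from -123 to -117. The second Slc7a1 entry held the GAS letters from -146 to -138, and the first Slc39a10 entry held them from -82 to -74. Slc16a1 held the MRE letters, on the other strand, from -52 to -46. Of the 9 genes with an entry among those higher with zVAD, 2 had an AP-1 match, 2 a GAS match, 3 an MRE match, and 0 an NF-kB, ISRE or CARE match within 250 bases. NF-kB matches were found in 4 of the 12 genes with an entry that were lower with zVAD. For comparison, shares were taken over all 27025 genes with a promoter entry, which were not filtered by signal as the carriers were. Among them NF-kB was matched in 8.23%, GAS in 8.13%, AP-1 in 7.82%, MRE in 23.8%, ISRE in 3.46% and CARE in 3.91%. Over the 138 carriers these shares were 10.1%, 6.52%, 6.52%, 36.2%, 2.17% and 2.9%. No match was found in the windows of Slc39a2 and Slc38a2, or in the second one of Slc39a10.

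Monocarboxylate carriers differed in sign with zVAD. Slc16a1, a carrier of lactate, pyruvate and ketone bodies, was at 9.70, 8.99, 10.40 and 9.12, or 2.65-fold higher with zVAD and 2.43-fold lower with Nec-1. Slc16a3, the lactate exporter, was at 11.85, 11.86, 10.86 and 11.31, and Slc16a6 at 10.21, 9.95, 8.94 and 9.42. Their log2 ratios with zVAD were -1.0004 and -1.01 as deposited and -0.95 and -0.88 after quantile normalization, so both lay at the edge of 2-fold. Slc16a7 had a ratio of 0.05.

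Sugar carriers had 1 higher and 1 lower gene of 11 with zVAD, beside 3.7% and 4.08% of all genes. Slc37a2 was 2.41-fold higher with zVAD and 2.17-fold lower with Nec-1 (10.64, 8.95, 10.22 and 9.10). Slc37a4, which brings glucose 6-phosphate into the endoplasmic reticulum, was 2.05-fold lower with zVAD (9.01, 8.62, 7.58 and 8.08), and at -0.94 after quantile normalization. Slc2a6 and Slc2a3 had ratios of -0.40 and -0.27. Among ion carriers, the potassium and chloride cotransporter Slc12a7 was at 9.09, 9.09, 10.25 and 9.37, or 2.24-fold higher with zVAD. The sodium and calcium exchanger Slc8a1 was 2.17-fold lower (7.77, 8.75, 7.63 and 8.18), and the mean of its probes gave -0.83.

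The class of nucleotide sugars and acetyl-CoA (the Slc35 family with Slc33a1) had the lowest class median with zVAD. Of 21 genes, 19 had ratios below 0 as deposited (17 after cyclic loess), beside 105 of the 176 genes of the set. By 2-fold 4 were lower and 1 was higher, beside 4.08% and 3.7% of all genes. The class median was -0.60, beside -0.10 for all genes. Under the scalings that median ranged from -0.64 with centred arrays to -0.49 after cyclic loess. Slc33a1, which brings acetyl-CoA into the endoplasmic reticulum, was at 8.65, 9.43, 8.16 and 9.21, or 2.41-fold lower. Slc35d2, a carrier of UDP-N-acetylglucosamine, was at 8.78, 9.37, 8.10 and 9.04, or 2.42-fold lower. Slc35b4, a Golgi carrier of UDP-xylose and UDP-N-acetylglucosamine, was at 10.56, 9.94, 8.78 and 9.80, or 2.23-fold lower. Slc35c1, which supplies GDP-fucose to the Golgi, was at 8.999, 8.41, 7.26 and 8.01, or 2.21-fold lower. LPS/zVAD was the lowest array for each of these 4 genes, which were chosen by their low signal on it against LPS, so this is a description. Slc35f5 alone was higher, at 10.57, 10.75, 11.77 and 10.95, with a ratio of 1.02 as deposited and 0.97 with centred arrays. With Nec-1, the class median was 0.48 over LPS/zVAD (0.08 for all genes). It rests on the same LPS/zVAD array as the median with zVAD, so the medians are not independent. Of the 21 ratios 3 were below 0 (4 after cyclic loess), beside 66 of the 176 genes of the set.

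Mitochondrial carriers had 0 higher and 2 lower genes of 34 with zVAD, beside 3.7% and 4.08% of all genes. Slc25a45, a carrier of the inner membrane, was at 10.96, 10.73, 9.32 and 10.47, or 2.66-fold lower with zVAD and 2.23-fold higher with Nec-1 than without it. Slc25a10, the dicarboxylate carrier that exchanges malate and succinate for phosphate, was at 10.13, 10.10, 9.09 and 10.16, or 2.01-fold lower, and at -0.88 after quantile normalization. Slc25a12 was again close to 2-fold without reaching it, with -0.91 and, with Nec-1, 0.90. Slc25a37, mitoferrin, which brings iron into mitochondria, was at 9.48, 10.28, 10.84 and 9.79, or 2.06-fold lower with Nec-1 than with LPS/zVAD. Outside the mitochondria, Slc10a7 had the lowest ratio with zVAD of all carriers (9.84, 9.90, 8.37 and 9.53), 2.89-fold lower and 2.24-fold higher with Nec-1. Slc27a4, which takes up and activates long-chain fatty acids, was at 8.77, 8.96, 7.92 and 8.93. Its ratios of -1.05 with zVAD and 1.01 with Nec-1 fell short of 2-fold after quantile normalization, at -0.93 and 0.99.

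Nucleoside carriers, which led the LPS comparison, had 0 genes past 2-fold in either of these comparisons: Slc28a2 had ratios of -0.35 and 0.04, and Slc28a2b of -0.28 and 0.06, the second of each just under 0 after cyclic loess. The vitamin carriers also had 0 as deposited. Among them Slc23a2, the vitamin C importer, was at 10.69, 11.43, 12.42 and 11.71. Its ratio with zVAD was 0.99 as deposited and 1.02 after quantile normalization. Slc48a1, which takes heme out of lysosomes, was at 12.36, 12.07, 11.16 and 11.77.

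**Figure D5:**
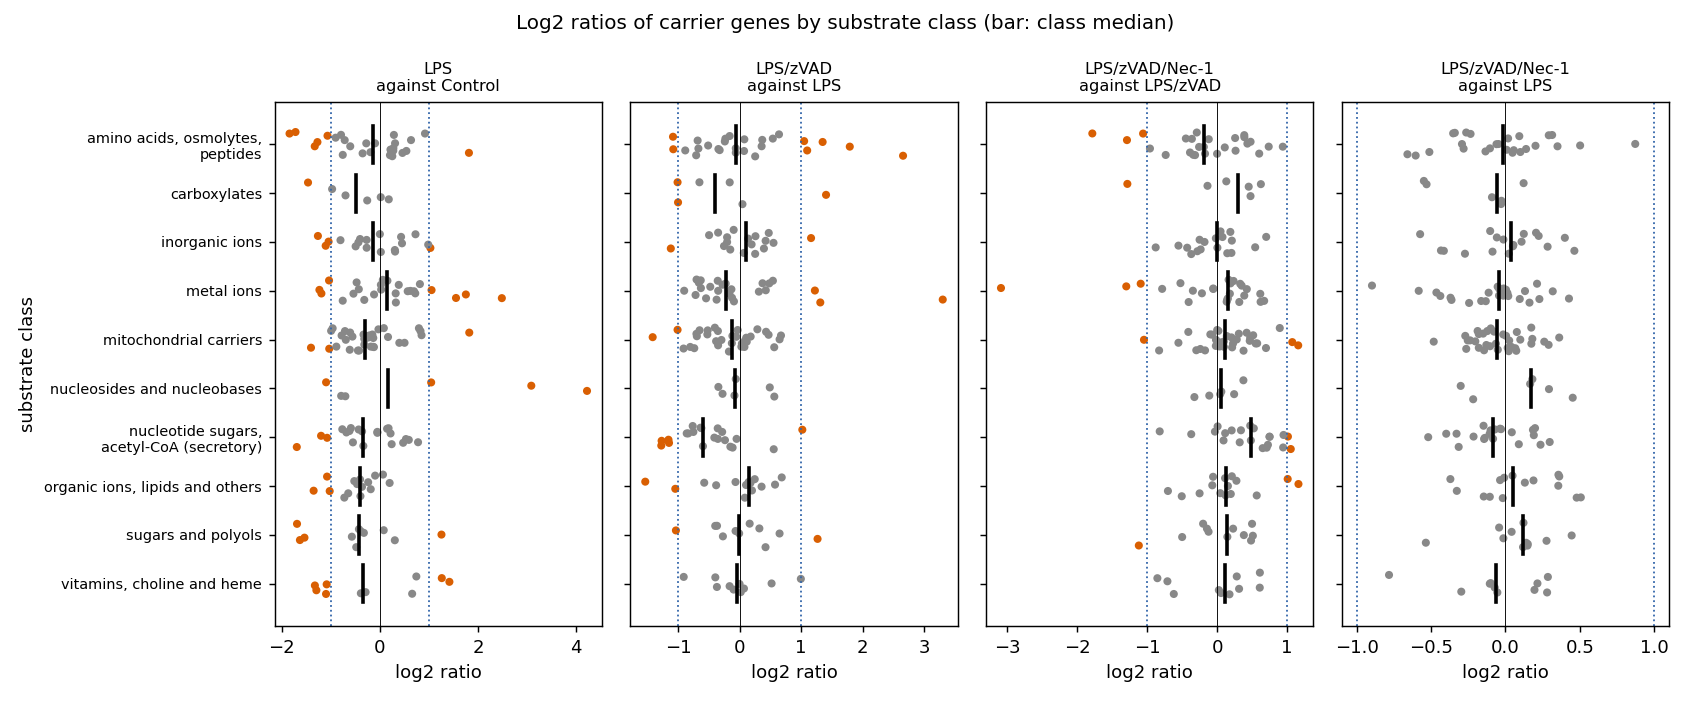
Log2 ratios (horizontal axis, a different scale in each panel) of the carrier genes by substrate class (vertical axis) in the 4 comparisons, 1 point for each gene; black bars are class medians, dotted lines mark 2-fold and coloured points lie past it. The class of nucleotide sugars and acetyl-CoA (the Slc35 family with Slc33a1) has its median at -0.60 with zVAD and at 0.48 with Nec-1 added. In the last panel no point passes 2-fold.

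LPS/zVAD/Nec-1 was compared with LPS to show how far the array with both inhibitors stood from LPS alone. No carrier gene was 2-fold apart: 0 of 176 were higher and 0 lower, where 0.0853% and 0.578% of all genes were. At 1.5-fold, 1 carrier was higher and 4 were lower, where the shares of all genes were 0.758% and 3.03%. The medians were -0.02 for the carriers and -0.05 for all genes, and the ratios ran from -0.90 to 0.87. The highest was that of Slc38a2 at 0.87. The lowest was that of Slc39a14, which imports zinc and iron not bound to transferrin, at 9.31, 9.63, 9.26 and 8.74. Slc44a1 was at -0.78 on the probe used and -0.16 on the other, Slc6a4, the serotonin carrier, at -0.66, and Slc36a1 at -0.60. Slc6a4 was at 6.46, 7.38, 7.03 and 6.72, under the level with Nec-1, and counted from the level its ratio was -0.38, short of 1.5-fold. With 1 array for each condition, these sizes cannot be set against the error of an array.

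Some carrier genes are direct neighbours in the RefSeq gene order, such as Slc38a1 with Slc38a2, Slc28a2 with Slc28a2b and Slc7a6 with Slc7a6os. The last pair had ratios of -1.07 and -0.38 with LPS. Slc22a21 and Slc22a4 lie side by side on chromosome 11 and had ratios of -0.38 and 0.68 with zVAD, and Slc25a43 and Slc25a5, neighbours on the X chromosome, had 0.85 and -0.32 with LPS. Slc22a21 and Slc25a43 are named here only for their position, chosen after their values were seen.

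A list of 47 related genes covered carriers known by other symbols and subunits that carriers need; 40 were measured and 28 reached the level. With LPS, 2 of the 28 were higher and 4 lower, beside 9.39% and 8.24% of all genes. Slco3a1, an organic anion carrier, was at 7.19, 10.35, 8.70 and 10.22, so it was 3.16 higher on the log2 scale with LPS. Its ratios were -1.65 with zVAD and 1.52 with Nec-1 added. Mfsd9 had a ratio of 1.41 with LPS. Lower with LPS were Slco2b1, Mfsd6, Mfsd11 and Flvcr1, the last a carrier of the plasma membrane linked to heme and choline, at 11.38, 10.32, 11.17 and 10.07. With zVAD, 0 were higher and 2 lower, beside 3.7% and 4.08% of all genes. The lower ones were Slco3a1 and Txnip, a protein that promotes removal of glucose carriers from the cell surface, at 12.53, 11.71, 10.63 and 11.51. With Nec-1 over LPS/zVAD, 1 was higher, Slco3a1, and 1 lower, Flvcr1 at -1.10, beside 1.31% and 3.77% of all genes. Between LPS/zVAD/Nec-1 and LPS, 0 of the 28 were 2-fold apart, where 0.0853% of all genes were higher and 0.578% lower.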

How the data were processed

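Total RNA of 4 macrophage cultures, 1 for each condition, was hybridised to 1 Affymetrix array each, and samples were grouped by their titles. The deposited values are gene-level log2 signals for which the authors used Affymetrix Expression Console, as the submitters' processing notes state. How long cells were treated, which version was used and how arrays were normalized are points not given in the sources used here. A shift between arrays would move every ratio. Of 35556 probes, 21789 had 1 symbol in the platform annotation, 1621 several and 12146 none. Only the first kind was used, and 3 of the second name a solute carrier gene. All 176 genes were found in the RefSeq table of GRCm38.p6, with 0 symbols altered, and 11 had more than 1 probe. Differences of log2 signals between single arrays were taken in 4 comparisons, without a test, as a condition had 1 array. The number of arrays limits the precision.

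Genes were put into 10 substrate classes by hand. The members, the classes, the partner list and the cell markers were chosen with earlier results of these data known, and members are not replicates of a condition. Named genes were the 12 highest and 12 lowest past 2-fold in a comparison, up to 4 for each class and comparison, the 3 of highest mean in each class, the 4 on each side of the signal level, and 34 of 36 key genes, together 108, with up to 4 partner genes for each comparison. A fold against a signal under log2 7 is counted from log2 7. Alternatives were 1.5-fold and 3-fold thresholds, median-centred arrays, quantile normalization and cyclic loess, other signal levels or none, the mean of a gene's probes, signals under the level set to it, and, chosen after seeing the data, leaving out the 4 genes that are not carriers. Counting was tested on simulated data. Promoter motifs were searched in RefSeq windows of 250 bases before the start. Python 3.11.15, pandas 2.3.3, numpy 2.4.6, matplotlib 3.10.9, R 4.3.3 and limma 3.58.1 were used.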

Additional observations from a re-analysis of the deposited data

How the results depend on the processing

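Of 88 counts of carrier genes under an alternative, 71 stayed within 1.5 times the value as deposited and 17 did not. With a 1.5-fold threshold, 28 were higher (15.9%, against 16.3% of all genes) and 53 lower (30.1%, against 19.2%) in LPS against Control. In LPS/zVAD against LPS, 40 were lower (22.7%, against 14.9%). In LPS/zVAD/Nec-1 against LPS/zVAD, 26 were higher (14.8%, against 8.33%) and 19 lower (10.8%, against 9.24%). In LPS/zVAD/Nec-1 against LPS, 1 was higher (0.568%, against 0.758%) and 4 were lower (2.27%, against 3.03%). With a 3-fold threshold, 6 were higher (3.41%, against 5.16% of all genes) and 5 lower (2.84%, against 2.53%) in LPS against Control. The share of lower carriers was thus close to that of all genes, where at 2-fold it was 15.9% against 8.24%. In LPS/zVAD against LPS, 3 were higher (1.7%, against 1.36%) and 0 lower (against 0.73%). In LPS/zVAD/Nec-1 against LPS/zVAD, 0 were higher (against 0.152%) and 2 lower (1.14%, against 1.03%). A stricter threshold can only lower such counts. Centred arrays gave 18 lower in LPS against Control. In LPS/zVAD against LPS, quantile normalization gave 7 lower and cyclic loess 6. In LPS/zVAD/Nec-1 against LPS/zVAD, cyclic loess gave 2 higher. Leaving out the 4 genes that are not carriers, an alternative chosen after seeing the data, moved no count beyond 1.5 times, nor did the other signal levels, the mean of a gene's probes or signals set to the level. Of 2160 ratios of the 108 named genes under an alternative, 2103 stayed on the same side of 2-fold, 57 crossed it and 0 past 2-fold turned their sign. The cause of these shifts was not tested. No paired analysis was possible because each condition had 1 array. No alternative stands in for a second array, and signals near log2 7 give bounds only.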
